A study of Mus musculus with 15 samples.

Results

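The genes described here were the 2-5A synthetase (OAS) family members Oas1a, Oas1b, Oas1g, Oas2, Oas3, Oasl1 and Oasl2. They were taken by symbol from the deposited expression tables, and each of the 7 matched 1 of the 38277 gene rows. Oligoadenylate synthetases sense double-stranded RNA in the cytosol and, when bound to it, join ATP into 2'-5'-linked oligoadenylates (2-5A). These messengers act in the cell's defence against RNA viruses. The genes are classical interferon-stimulated genes, induced through the ISGF3 complex, which contains Stat2 and Irf9 and binds the interferon-stimulated response element (ISRE).

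RNA was sequenced from 15 libraries of JS1, a mouse hepatic stellate cell line, the liver cell type that becomes a collagen-producing myofibroblast in fibrosis. All libraries share a genotype labelled TLR4-/- with WT TLR4 expressed in the cells. Cells carried either the empty control vector (EV) or an XPO4 overexpression construct, titled Plasmid in the labels and called XPO4 here, and each was kept untreated (baseline) or given TGFβ. Libraries are numbered from 0 within a group, as in the labels. The groups held 4 libraries for EV, 3 for XPO4, 4 for EV with TGFβ and 4 for XPO4 with TGFβ. The labels used here give no TGFβ dose or duration, no promoter or species of the construct and no clone number, and they do not say that libraries came from separate cultures. The p-values therefore cover only the variation among these libraries, some or all of which may be technical. The question was how raised exportin-4, a nuclear transport receptor, changed gene expression in these cells with and without TGFβ.

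Values are FPKM, fragments per kilobase of transcript scaled to each library's total, so levels can be compared between genes. Differences were tested on log2(FPKM + 1) with limma, and called where the p-value adjusted over all genes tested was under 0.05. This scale understates the change of low genes. Read depth is unknown, and FPKM summed to 480030 to 526338 per library. Xpo4 itself was 6.83, 9.33, 8.18 and 6.09 FPKM in EV and 17.4, 14.0 and 15.7 FPKM in XPO4. With TGFβ it was 4.56, 7.16, 8.84 and 8.04 FPKM in EV and 15.02, 12.8, 16.2 and 14.5 FPKM in XPO4, so the libraries followed their labels in both conditions. Of 12 stellate and myofibroblast markers 7 had a mean of at least 1 FPKM. Among them Vim was at 1921 to 2927 FPKM, Col1a1 at 69.9 to 172 FPKM and Des at 0.586 to 3.26 FPKM. Pdgfrb, Lum, Gfap and Reln had means of 0.723, 0.0858, 0.0637 and 0.0337 FPKM. Lrat, which marks quiescent stellate cells, was listed at 0 throughout.

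In the mm10 assembly with GENCODE M21 annotation, all 7 members lie on chromosome 5. Oas2 (chr5:120730333-120749853, minus strand), Oas3 (chr5:120753098-120777661, minus), Oas1b (chr5:120812635-120824163, plus), Oas1g (chr5:120876142-120887613, minus) and Oas1a (chr5:120896256-120907521, minus) belong to a cluster of 10 Oas genes spanning 191 kb. Oasl2 (chr5:114896936-114912234, plus) and Oasl1 (chr5:114923240-114937915, plus) are neighbours within 41.0 kb, 5.79 Mb away from the cluster. The annotation gives Oas1b as a polymorphic pseudogene and the other 6 as protein coding.

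RefSeq promoter windows of GRCm38.p6 were found for 5 members, Oas1a, Oas1g, Oas3, Oasl1 and Oasl2. The start of Oas1b lies inside the window of its divergent neighbour Oas1c, 120 bases away on the opposite strand, and was read from there. Oas2 had no entry. Stretches of 140 bases, from 110 before to 30 after the start site, are printed here because members differ in whether they hold the letters of the ISRE core. Capitals mark matches to the ISRE core GAAANNGAAA, and stretches with no capitals have no match.
Oas1a (chr5:120907496-120907635, minus strand): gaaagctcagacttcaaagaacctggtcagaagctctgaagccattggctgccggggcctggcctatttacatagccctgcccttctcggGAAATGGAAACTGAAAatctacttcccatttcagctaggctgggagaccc
Oas1g (chr5:120887584-120887723, minus strand): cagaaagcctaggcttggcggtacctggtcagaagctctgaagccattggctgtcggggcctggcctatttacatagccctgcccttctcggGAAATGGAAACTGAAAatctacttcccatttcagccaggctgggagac
Oas1b (chr5:120812525-120812664, plus strand): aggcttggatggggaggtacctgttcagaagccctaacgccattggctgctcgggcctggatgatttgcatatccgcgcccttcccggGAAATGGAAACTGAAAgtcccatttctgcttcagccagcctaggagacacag
Oas3 (chr5:120777630-120777769, minus strand): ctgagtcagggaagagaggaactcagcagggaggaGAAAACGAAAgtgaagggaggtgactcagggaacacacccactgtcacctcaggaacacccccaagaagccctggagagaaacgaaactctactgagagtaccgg
Oasl1 (chr5:114923130-114923269, plus strand): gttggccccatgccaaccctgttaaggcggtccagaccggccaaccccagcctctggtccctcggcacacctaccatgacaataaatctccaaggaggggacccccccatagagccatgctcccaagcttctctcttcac
Oasl2 (chr5:114896824-114896963, plus strand): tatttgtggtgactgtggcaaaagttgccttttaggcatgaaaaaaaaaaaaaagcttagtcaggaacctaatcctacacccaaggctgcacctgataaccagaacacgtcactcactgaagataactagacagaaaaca

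Oas1a, Oas1g and Oas1b each held 2 overlapping ISRE cores just ahead of the start. The first began 20 bases before the start in Oas1a, 18 bases in Oas1g and 22 bases in Oas1b. Oas3 held 1 core that began 75 bases before its start, and the whole 300-base windows of Oasl1 and Oasl2 held none on either strand. The core was present in 1131 of 32851 RefSeq windows, or 3.44%, searched on both strands and with overlapping matches allowed. With the core shortened by 1 base to GAAANNGAA, which 8.56% of windows held, the same 4 members had matches. The GAS core TTCNNNGAA, the core letters of the gamma-activated site, was in 8.30% of windows and among these 6 members in Oas1a alone, beginning 98 bases before the start. The printed Oas1a and Oas1g stretches were identical at 92.8% of aligned bases, against 73.9% for Oas1a and Oas1b. A match here is a run of letters, and binding was not measured.

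**Figure D1:**
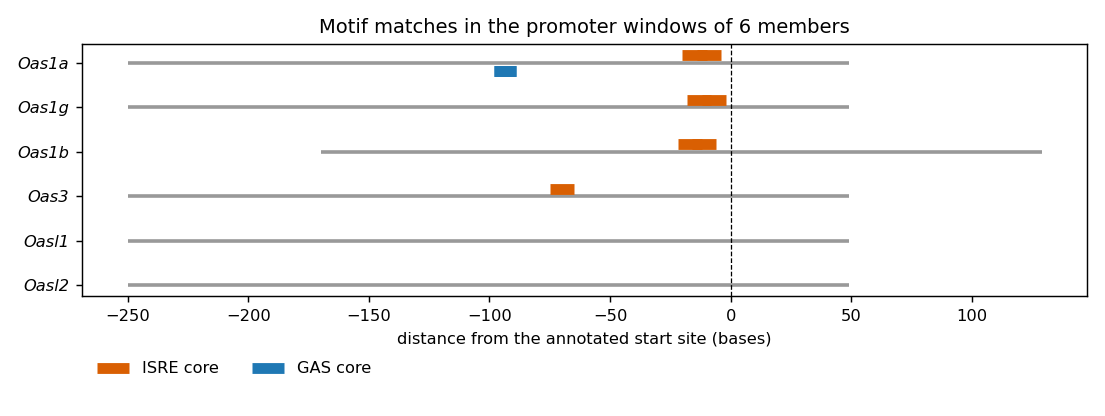
Positions of ISRE core matches (orange) and GAS core matches (blue) in the promoter windows (grey lines) of 6 members, on a horizontal axis of bases from the annotated start site. ISRE matches lie within 22 bases of the start in Oas1a, Oas1g and Oas1b and 75 bases before it in Oas3, while Oasl1 and Oasl2 show none.

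All 7 members were higher in XPO4 than in EV at baseline, and their summed level rose from 521 ± 22.6 FPKM (SD, n = 4) to 1392 ± 56.1 FPKM (n = 3), a ratio of 2.67. Oas3 rose most, 5.52-fold by mean FPKM, and Oasl1 least, 2.35-fold. The limma test called 7 of 7 members higher and none lower, where 2.85% of the 11926 genes tested were called higher and 0.864% lower. The groups did not overlap for any of the 7 members, where 8.23% of genes were higher without overlap. Their median difference was 1.62 on the log2(FPKM + 1) scale, against -0.0044 over all genes tested.

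Among the synthetases with catalytic activity, Oas3 carries several copies of the OAS unit and makes 2-5A on long double-stranded RNA. Its levels were 3.03, 4.35, 8.19 and 4.97 FPKM in EV and 29.2, 27.4 and 28.5 FPKM in XPO4. EV library 2 was the highest of its group, and every XPO4 library stood far above it. The difference was 2.32 (SE 0.24) on the log2(FPKM + 1) scale, with a limma adjusted p of 0.000529. Oas3 ranked 28 among the 11926 genes when these were ordered from the largest rise to the largest fall in log2 difference.

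Oas2, a synthetase with 2 OAS units of which the second is catalytic, was 19.1, 22.7, 26.7 and 27.3 FPKM in EV and 105, 95.4 and 99.5 FPKM in XPO4. The groups lay wide apart, and the lowest XPO4 library was above every EV library. Its log2 difference was 2.03 (SE 0.12; limma adjusted p = 1.92e-05), at rank 45 in the same order from largest rise to largest fall.

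Oas1a and Oas1g are close copies of the single-unit synthetase. Oas1a was 21.7, 24.2, 22.3 and 20.9 FPKM in EV and 69.6, 71.5 and 71.0 FPKM in XPO4. Oas1g was 20.5, 22.5, 25.5 and 25.6 FPKM in EV and 73.3, 79.0 and 71.8 FPKM in XPO4. In both genes the XPO4 libraries formed a tight group well above EV. The log2 differences were 1.62 (SE 0.07; limma adjusted p = 5.45e-06) for Oas1a and 1.63 (SE 0.10; limma adjusted p = 1.62e-05) for Oas1g. Their coding sequences differ at 36 of 1101 bases, and 57.6% of the 50-base windows of the Oas1a transcript occur in another gene, all of them in Oas1g. The rule by which reads shared by the pair were counted is not known here, so the separate levels of Oas1a and Oas1g are uncertain. The corresponding share was 3.19% for Oas1b, 0.471% for Oas3, and 0 for Oas2, Oasl1 and Oasl2.

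Oas1b, known in mice as the flavivirus resistance gene and without synthetase activity, was 14.4, 15.4, 16.1 and 16.8 FPKM in EV and 47.2, 47.9 and 43.4 FPKM in XPO4. No EV library came near the XPO4 range. The log2 difference was 1.501 (SE 0.08; limma adjusted p = 1.29e-05).

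Oasl1 and Oasl2 carry ubiquitin-like domains after the OAS unit. In the mouse Oasl2 has synthetase activity, and Oasl1 lacks it and represses translation of the Irf7 mRNA. Oasl2 was 204, 213, 212 and 216 FPKM in EV and 525, 582 and 565 FPKM in XPO4, a log2 difference of 1.39 (SE 0.06; limma adjusted p = 5.45e-06). Oasl1 was 229, 244, 184 and 219 FPKM in EV and 516, 553 and 475 FPKM in XPO4, a log2 difference of 1.23 (SE 0.10; limma adjusted p = 0.000132). Both pairs of groups were separate, with EV library 2 the lowest for Oasl1. Irf7, the mRNA that Oasl1 acts on, was 139 ± 13.4 FPKM (SD, n = 4) in EV and 488 ± 18.5 FPKM (n = 3) in XPO4, and rose by 1.804 on the log2 scale (limma adjusted p = 5.45e-06).

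**Figure D2:**
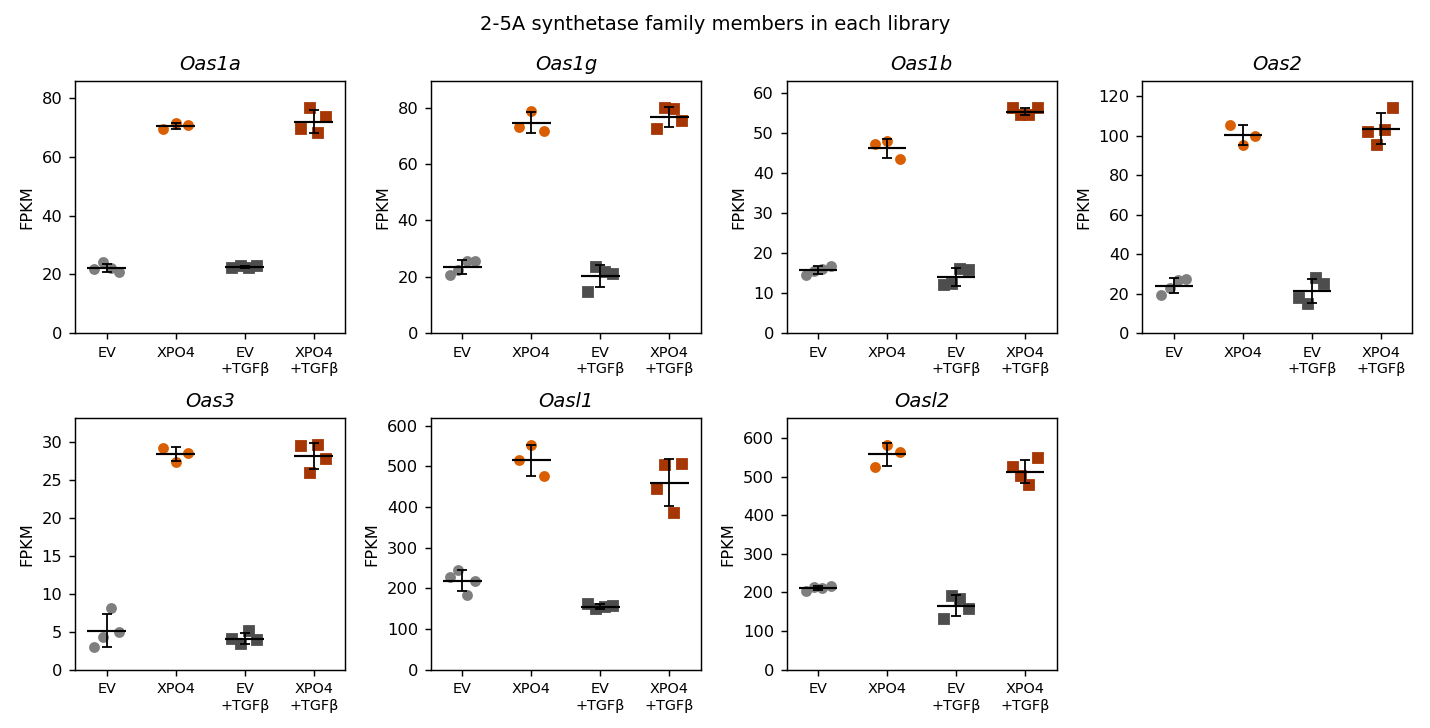
FPKM of the 7 members in each library, with group means (long bars) and SD (whiskers), in a panel per gene with its own axis from 0; n is 4, 3, 4 and 4 libraries from left to right. For each of the 7 members the XPO4 libraries lie above all EV libraries of the same condition.

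The share of each member in the family's total was read from the same values, with no test. Oasl1 and Oasl2 together held 82.6% ± 2.03 (SD, n = 4) of the members' summed FPKM in EV and 77.0% ± 0.880 (n = 3) in XPO4, and the 5 Oas members made up the rest. In EV, Oasl1 and Oasl2 led with overlapping levels. Oas2, Oas1g and Oas1a followed with levels that overlapped one another, then Oas1b, then Oas3. In XPO4, Oasl2 and Oasl1 still overlapped at the top, and the order below them was Oas2, Oas1g, Oas1a, Oas1b and Oas3 with no overlap between neighbours. The lowest Oas1g library, at 71.8 FPKM, was barely above the highest Oas1a library, at 71.5 FPKM. Since the separate levels of this pair are uncertain, their order is not settled. The highest mean was 42.7 times the lowest in EV and 19.7 times in XPO4. The family made up 0.105% of a library's FPKM in EV and 0.271% in XPO4.

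With TGFβ present, the 7 members were again higher in XPO4, from a summed 403 ± 27.9 FPKM (SD, n = 4) in EV to 1309 ± 85.1 FPKM (n = 4), a ratio of 3.25. The limma test called 7 of 7 higher and none lower, where 2.89% of the 11976 genes tested were called higher and 0.852% lower. All 7 were free of overlap between groups, where 6.03% of genes were higher without overlap. The median difference of the members was 1.90 on the log2 scale, against -0.0048 over all genes. Oas3 again rose most, 6.89-fold by mean FPKM, and Oasl1 least, 2.96-fold.

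Oas3 was 4.08, 3.34, 5.05 and 3.86 FPKM in EV with TGFβ and 29.4, 25.9, 29.6 and 27.7 FPKM in XPO4 with TGFβ. Oas2 was 17.95, 14.9, 27.7 and 24.96 FPKM and 102, 95.02, 103 and 114 FPKM in the same groups. EV libraries 0 and 1 were the lower pair for Oas2, and the XPO4 range began far above the EV range for both genes. The log2 differences were 2.53 (SE 0.12; limma adjusted p = 8.74e-07) for Oas3 and 2.26 (SE 0.17; limma adjusted p = 2.32e-05) for Oas2.

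Oas1a was 22.2, 22.8, 22.2 and 22.8 FPKM in EV with TGFβ and 69.5, 76.7, 68.2 and 73.6 FPKM in XPO4 with TGFβ. Oas1g was 14.4, 23.4, 21.8 and 20.95 FPKM and 72.4, 79.9, 79.4 and 75.4 FPKM. Oas1b was 11.9, 12.2, 16.0 and 15.8 FPKM and 56.2, 54.5, 54.5 and 56.2 FPKM. EV library 0 was low for Oas1g, and no XPO4 library of these genes came near the EV range. The log2 differences were 1.64 (SE 0.07) for Oas1a, 1.90 (SE 0.14) for Oas1g and 1.92 (SE 0.11) for Oas1b, with limma adjusted p-values of 7.55e-07, 1.46e-05 and 2.77e-06.

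Oasl1 was 162.3, 149.1, 154.2 and 155.7 FPKM in EV with TGFβ and 443, 503, 386 and 507 FPKM in XPO4 with TGFβ. Oasl2 was 131.9, 191.8, 182.0 and 157.8 FPKM and 526, 502, 477 and 547 FPKM. XPO4 library 2 was the lowest of its group for both genes and still above all EV libraries. The log2 differences were 1.55 (SE 0.09; limma adjusted p = 3.94e-06) for Oasl1 and 1.64 (SE 0.11; limma adjusted p = 1.18e-05) for Oasl2.

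Library codes in the labels are consecutive but for a missing code. They take the groups in the same order first for replicates 0 and 1 and then for replicates 2 and 3. The libraries were split at that repeat into 2 series, which the labels neither mark nor explain. Within the first series the members' log2 differences between XPO4 and EV ran from 1.17 to 2.66 at baseline and from 1.60 to 2.61 with TGFβ. Within the second they ran from 1.24 to 1.99 at baseline, where a single XPO4 library is present, and from 1.51 to 2.45 with TGFβ. Every member was higher in XPO4 in each series and condition.

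Of the 2-5A pathway beyond the members, 8 genes were counted and 4 reached the filter of a mean of at least 1 FPKM. At baseline 1 of the 4 was called higher and none lower, where 2.85% of all genes tested were called higher. With TGFβ again 1 was called higher and none lower, where 2.89% of all genes tested were called higher. The called gene was Oas1c in both conditions. Oas1c, a further Oas1 copy in the cluster, was 4.804, 6.11, 5.72 and 4.64 FPKM in EV and 10.7, 10.9 and 9.71 FPKM in XPO4. At baseline its log2 difference was 0.86 (SE 0.12; limma adjusted p = 0.00426), and under TGFβ it was 0.94 (SE 0.15; limma adjusted p = 0.00536), each smaller in size than that of any of the 7 members. The median of the 4 tested genes was 0.02 at baseline and -0.0048 with TGFβ, near that of all genes.

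The other 3 tested genes of the list, Pde12, Akap7 and Abce1, did not pass the test in either condition. Pde12, a phosphodiesterase that degrades 2-5A, had a mean of 8.05 FPKM in EV and 7.71 FPKM in XPO4, with a log2 difference of -0.06 (limma adjusted p = 0.884). Akap7, whose mouse protein also cleaves 2-5A, had means of 2.22 and 2.48 FPKM, with a log2 difference of 0.10 (limma adjusted p = 0.864). Abce1, an ATPase of ribosome recycling, had means of 107 and 97.3 FPKM, with a log2 difference of -0.14 (limma adjusted p = 0.554). With TGFβ their log2 differences were 0.03 for Pde12, -0.04 for Akap7 and -0.12 for Abce1.

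The remaining Oas1 copies of the cluster were near 0 and were not tested. Oas1h was 0.275, 0.135, 0.165 and 0 FPKM in EV and 1.42, 0.737 and 0.931 FPKM in XPO4. Oas1d was 0.350, 0.235, 0.200 and 0.516 FPKM in EV and 0.953, 1.26 and 0.338 FPKM in XPO4. Oas1h was separate between the groups at baseline and Oas1d was not. With TGFβ this was reversed. Oas1h then overlapped, with means of 0.242 FPKM in EV and 0.686 FPKM in XPO4, and Oas1d did not, with means of 0.109 and 0.626 FPKM. Oas1e did not exceed 0.433 FPKM in any of the 15 libraries, and Oas1f did not exceed 0.377 FPKM and was listed at 0 in all XPO4 libraries.

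**Figure D3:**
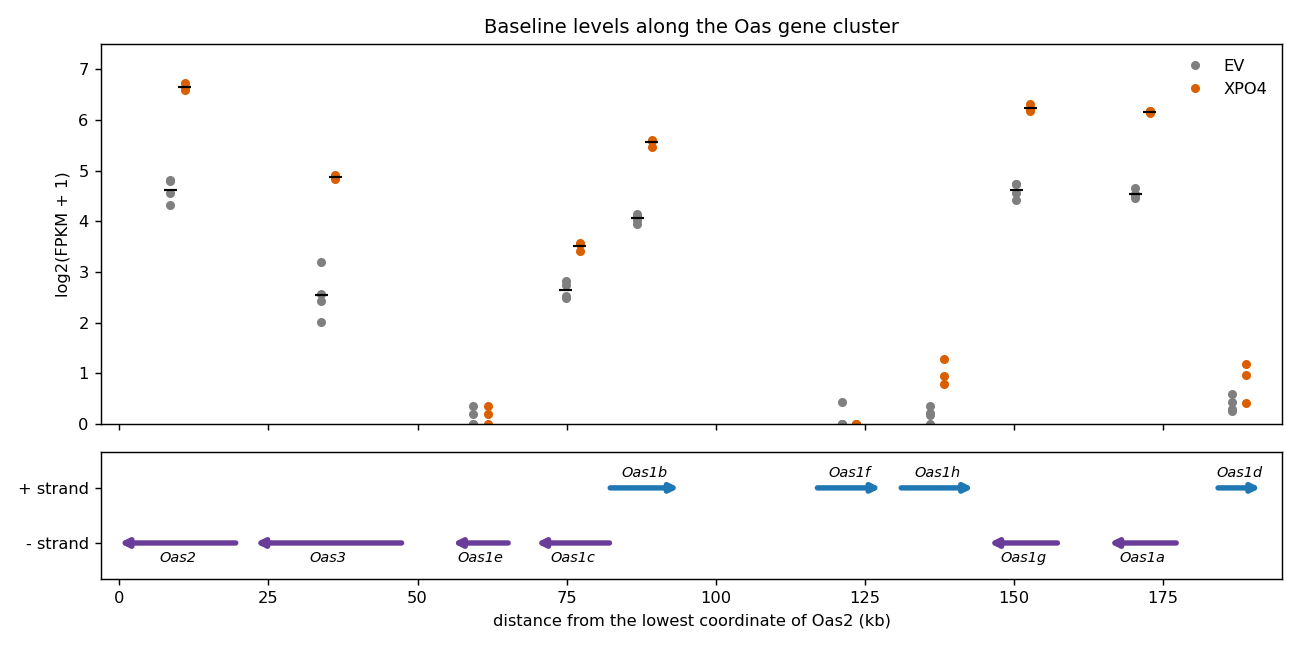
Baseline levels of the 10 Oas cluster genes, as log2(FPKM + 1) per library (dots; EV grey, n = 4; XPO4 orange, n = 3) with the group mean (bar; not drawn for Oas1d, Oas1e, Oas1f and Oas1h, which have libraries at 0 or near it), above a map of the genes by distance in kb and strand. Oas2, Oas3, Oas1c, Oas1b, Oas1g and Oas1a show separate groups, as does Oas1h at low levels, while Oas1e and Oas1f lie near 0 in both.

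Genes of double-stranded RNA sensing that act beside the OAS system were listed as 10 genes, of which 9 were tested. At baseline 7 of the 9 were called higher and none lower, with a median log2 difference of 0.70. With TGFβ 7 of the 9 were called higher and none lower, with a median of 0.75. Of all genes tested, 2.85% were called higher at baseline and 2.89% with TGFβ. Tlr3, the endosomal receptor for double-stranded RNA, rose from 9.85 ± 1.84 FPKM (SD, n = 4) to 36.5 ± 4.06 FPKM (n = 3) with a limma adjusted p of 0.00011. Dhx58, which encodes the cytosolic sensor LGP2, rose by 1.43 on the log2 scale (limma adjusted p = 1.31e-05). The helicase sensors Ddx58 (RIG-I) and Ifih1 (MDA5) rose by 0.86 and 0.76, and Eif2ak2, the kinase PKR that halts translation on double-stranded RNA, by 0.70. Adar, which edits adenosines in double-stranded RNA, rose by 0.51 and Zc3hav1, the CpG-binding antiviral protein ZAP, by 0.48. Prkra and Tarbp2 were not called. Mavs, the adaptor of the helicase sensors, was listed at 0 in all 15 libraries, although cells in general use this gene.

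With TGFβ the same 7 genes were called higher, from 0.62 for Zc3hav1 to 2.20 for Tlr3 on the log2 scale. The calls of Adar and Eif2ak2 depended on single libraries. Leaving out XPO4 library 0, EV library 0 or XPO4 library 2 lost the call of Adar at baseline (limma adjusted p 0.0529 to 0.0632), and leaving out any of 6 TGFβ libraries did so for Eif2ak2 with TGFβ (0.0513 to 0.0899). For Adar with TGFβ, the adjusted p was 0.051 without XPO4 library 0 and 0.0534 without EV library 3.

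The list from interferon beta to ISGF3 held 10 genes, all tested. At baseline 4 of the 10 were called higher and none lower, with a median log2 difference of 0.41. With TGFβ 5 of the 10 were called higher and none lower, with a median of 0.45. The shares of all genes tested that were called higher were 2.85% and 2.89%. Ifnb1, the gene of interferon beta, was listed at 0, 0.738, 0 and 0.827 FPKM in EV and at 8.28, 7.89 and 5.36 FPKM in XPO4. With TGFβ it was listed at 0, 0, 0.334 and 0 FPKM in EV and at 7.74, 7.56, 6.53 and 12.2 FPKM in XPO4. Every XPO4 library stood above every EV library of its condition, where 8.23% of genes at baseline and 6.03% with TGFβ were higher without overlap. The limma adjusted p was 0.000849 at baseline and 9.26e-06 with TGFβ. Ifnb1 averaged 0.391 FPKM in EV and 0.0834 FPKM in EV with TGFβ, so it passed the filter only through the XPO4 libraries. Its calls, which are among those counted above, therefore depend on the group where it is high.

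Stat2, a subunit of ISGF3, rose by 1.34 on the log2 scale at baseline (limma adjusted p = 6.65e-06) and by 1.52 with TGFβ. Irf9, which gives ISGF3 its ISRE contact, was 49.4 ± 5.42 FPKM (SD, n = 4) in EV and 67.0 ± 7.37 FPKM (n = 3) in XPO4, a log2 difference of 0.43 that missed the threshold (limma adjusted p = 0.0761). With TGFβ Irf9 rose by 0.71 (limma adjusted p = 0.000309). Irf1, another ISRE-binding factor, rose by 0.77 and 0.95 in the respective conditions. The receptor genes Ifnar1 and Ifnar2 were not called, with log2 differences of -0.08 and 0.39 at baseline and -0.08 and 0.19 with TGFβ. Jak1, Tyk2 and Irf3 were not called either.

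Relatives of the OAS nucleotidyltransferase fold and its DNA-sensing counterpart made a list of 3 genes. At baseline 1 was called higher and with TGFβ none, where 2.85% and 2.89% of all genes tested were called higher. Tmem173 (Sting1), the adaptor of the DNA sensor cGAS, had a log2 difference of 0.51 at baseline (limma adjusted p = 0.0478). That call was lost when any baseline library other than EV library 2 was left out (0.0761 to 0.189). Mb21d1, the gene of cGAS, which shares the OAS catalytic fold, had a log2 difference of 0.60 (limma adjusted p = 0.0977). Ilf2 was not called.

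**Figure D4:**
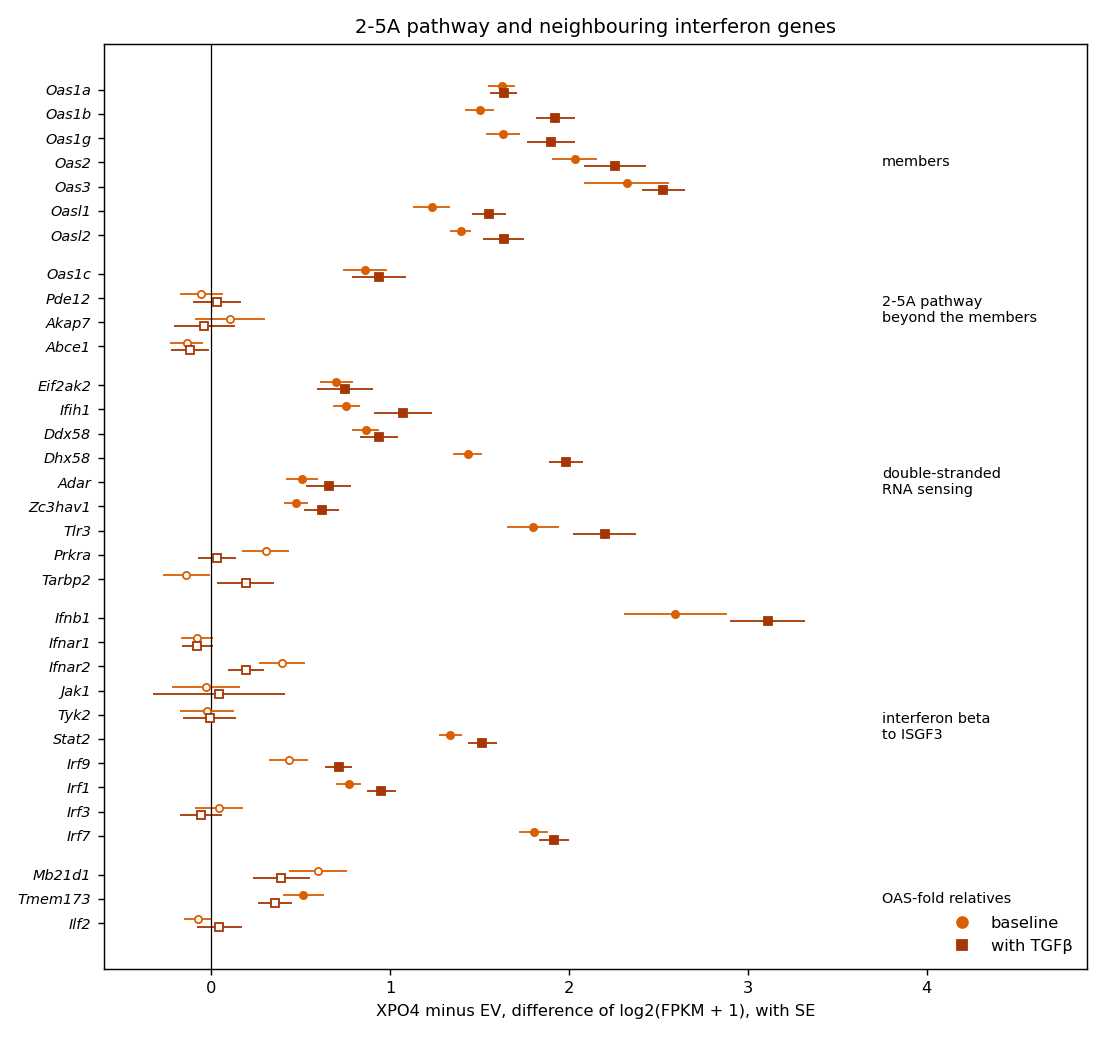
Difference between XPO4 and EV on the log2(FPKM + 1) scale with its limma SE, at baseline (circles, n = 4 and 3) and with TGFβ (squares, n = 4 and 4), for the members and the tested genes of 4 lists; filled symbols passed the adjusted threshold of 0.05 and open ones did not. All 7 members lie above 1, whereas Pde12, Akap7 and Abce1 have open symbols between -0.14 and 0.10.

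TGFβ, the main fibrogenic cytokine of stellate cells, was compared with baseline within each construct. These comparisons join tables that were deposited separately, and the median shift of all genes between them was -0.0090 in EV and -0.0059 in XPO4 on the log2 scale. In EV the limma test called 1 of 7 members lower and none higher, where 0.536% of 11951 genes were called lower and 1.24% higher. The called member was Oasl1, at 219 ± 25.7 FPKM (SD, n = 4) without and 155.3 ± 5.46 FPKM (n = 4) with TGFβ. Its log2 difference was -0.49 (SE 0.10; limma adjusted p = 0.0168), and the groups did not overlap. The call was lost without EV library 0 (0.0613), EV library 1 (0.059) or EV with TGFβ library 1 (0.0618).

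Oasl2 also did not overlap, at 211 ± 4.97 FPKM (SD, n = 4) and 165.9 ± 26.8 FPKM (n = 4), and its log2 difference of -0.36 missed the threshold (limma adjusted p = 0.0743). It passed without EV with TGFβ library 1 (0.04). The groups were thus free of overlap for 2 of 7 members, where 7.82% of genes had this in either direction. The other 5 members lay between -0.23 for Oas1g and 0.01 for Oas1a on the log2 scale, with overlapping groups.

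In XPO4, limma called none of the 7 members in either direction, where 1.19% of genes were called higher and 0.577% lower. Of the 11951 genes tested, 1202 had an unadjusted limma p under 0.05, among them 1 member. That was Oas1b, at 46.2 ± 2.42 FPKM (SD, n = 3) without and 55.4 ± 0.981 FPKM (n = 4) with TGFβ, a log2 difference of 0.26 (SE 0.10; limma adjusted p = 0.341). Its groups did not overlap, which held for 9.85% of genes in either direction. The log2 differences of the other 6 lay between -0.17 for Oasl1 and 0.04 for Oas2 and Oas1g, and their groups overlapped.

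The interaction asks whether the difference between XPO4 and EV itself changed with TGFβ. The point estimates of all 7 members were above 0, from 0.01 for Oas1a to 0.42 for Oas1b, although those of Oas1a and Oas3 fell below 0 when certain single libraries were left out. Their median was 0.24 on the log2 scale, against 0.0022 over all genes. None of them was called by limma (adjusted p = 1.0 for each), where 0.0% of 11951 genes were called, and 344 genes had an unadjusted p under 0.05. Oas1b (95% interval 0.13 to 0.72) and Oasl1 (95% interval 0.02 to 0.62) were the 2 members among those 344. A larger rise of the members under TGFβ was therefore not shown by this test, and intervals such as -0.37 to 0.78 for Oas3 leave room for differences in either direction.

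**Figure D5:**
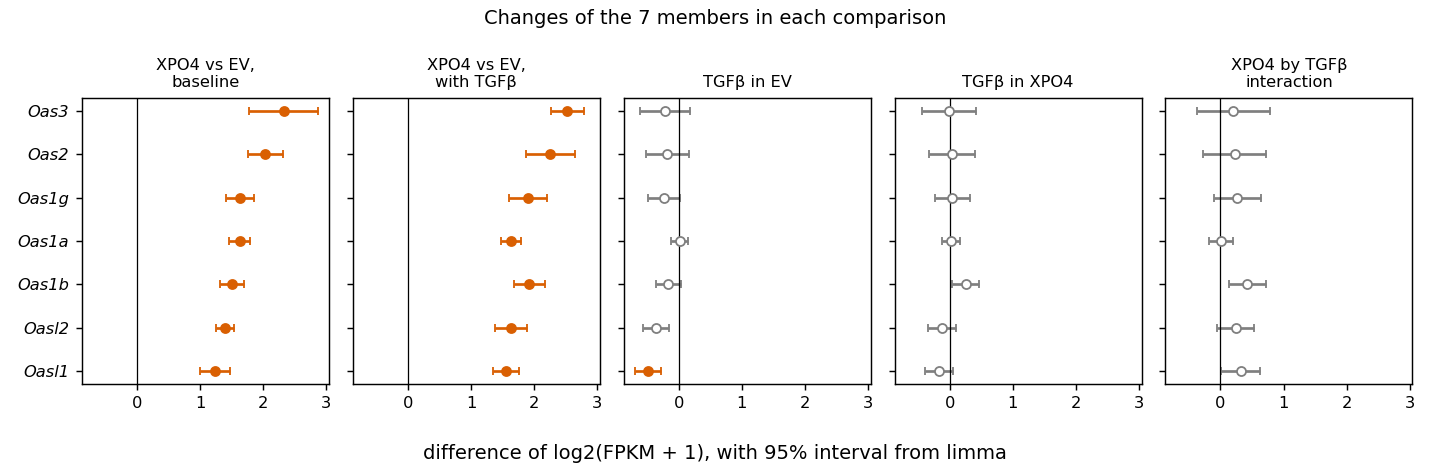
Difference of log2(FPKM + 1) with its 95% limma interval for each member in the 5 comparisons; filled orange symbols passed the adjusted threshold of 0.05 and open grey ones did not. All 7 members are filled and above 1 in both XPO4 panels, Oasl1 is filled at -0.49 for TGFβ in EV, and no member is filled for TGFβ in XPO4 or for the interaction.

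Genes with the most similar pattern were taken as those with the smallest root mean square difference of centred log2(FPKM + 1) over the 15 libraries, among 10621 genes. Nearest to the mean profile of the 7 members were H2-T22 (0.0974), Irf7 (0.104), Ly6e (0.108), Slfn2 (0.122) and Mndal (0.134). H2-T22 encodes a nonclassical MHC class I molecule, Ly6e is a surface protein and Slfn2 a member of the Schlafen family. Of these 5 genes 3 were also among the 5 nearest within the baseline libraries alone, and 3 within the TGFβ libraries alone. Among the members, Oas1b lay closest to the mean profile (0.109) and Oas3 farthest from it (0.369).

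The nearest genes differed from member to member. They were Parp12 for Oas1a (0.130), Ly6e for Oas1b (0.144) and Mndal for Oas1g (0.183). Oas2 was nearest to Rsad2 (0.197), which encodes the antiviral enzyme viperin, and Oas3 to Ifi44 (0.186) and then Rsad2 (0.196). Oasl1 was nearest to Cxcl10 (0.162), a chemokine that recruits T cells, and Oasl2 to Ifit1 (0.157), which binds viral 5' ends. Of these 7 first-ranked genes, 5 were not among the 3 nearest of their member within the baseline libraries alone or within the TGFβ libraries alone. Ifi44 recurred for Oas3 at baseline and Cxcl10 for Oasl1 with TGFβ. These distances describe the 15 libraries, which fall into the 4 groups, and all of the likeness rests on those groups and the spread within them.

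Markers of other cells were read beside these results, since interferon responses are strong in immune cells and a bulk library cannot tell fewer cells of a type from less RNA per cell. Of 10 macrophage markers 9 were used, and 4 had a mean of at least 1 FPKM (Cd14, Cd68, Csf1r and Lyz2). The sum of the 9 markers ran from 27.6 to 29.5 FPKM in EV and 29.2 to 34.9 in XPO4. With TGFβ it ran from 31.0 to 33.9 in EV and 25.6 to 32.6 in XPO4. Ptprc, which all leukocytes carry, reached at most 0.0565 FPKM, and Marco was listed at 0. The sum of 4 plasmacytoid dendritic cell markers ran from 4.28 to 7.70 FPKM in EV, 4.66 to 5.94 in XPO4, 4.65 to 5.79 in EV with TGFβ and 4.02 to 7.24 in XPO4 with TGFβ. Nearly all of it was Tcf4, and Siglech was listed at 0. The 5 lymphocyte markers summed to at most 0.0681 FPKM and the 5 hepatocyte markers to at most 0.636 FPKM in any library, and the 5 endothelial markers to at most 1.61 FPKM. The 4 cholangiocyte markers summed to 3.80 to 12.2 FPKM, with Epcam listed at 0.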

How the data were processed

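Libraries were poly(A)-selected and strand-specific (dUTP), per the labels' protocols. The submitters' processing notes name CASAVA 1.8.2 and STAR 2.7.2b, with mm10 and GRCh38 as builds whose roles are not stated. The deposited values are FPKM, in a table of the 7 baseline libraries and another of the 8 TGFβ libraries. Neither the program that computed them nor its rule for multi-mapping reads is known from the sources at hand. Whole reads could not be recovered from the values, so depth is unknown, no counting intervals are given and no count test was run.

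Groups came from titles and characteristics. The members, gene lists, markers and tests were chosen with earlier results of these data known. The test was limma 3.58.1 (intensity trend, R 4.3.3) on log2(FPKM + 1), for genes averaging 1 FPKM or more in the libraries fitted. Benjamini-Hochberg adjustment covered all genes of a fit, and the threshold was 0.05. XPO4 effects were fitted within each table, and TGFβ effects and the interaction on all 15 libraries joined by gene identifier. All 7 members and Xpo4 are named, and genes of 4 further lists are counted, with values for those named. A few genes of those lists are not reported here and are in none of the counts or medians. The nearest genes were ranked with members, predicted names and repeated symbols left out, taking 3 for each member and 5 for the mean profile, of which the closest are given. The code was tested on simulated data.

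Positions are from GENCODE M21, in which 36342 of the 38277 identifiers were found. Promoter windows, 250 bases before to 50 after each start, are from RefSeq (GRCm38.p6). Shared 50-base windows were counted between GENCODE transcripts, and identities were computed with Biopython 1.88. Plots used matplotlib 3.10.9 under Python 3.11.15. Alternatives were a pseudocount of 0.1, no filter or a minimum of 5 FPKM, rescaling to a TPM scale, quantile normalization, median centring, a replicate or library code block, 1 fit of all groups, and leaving out each library.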

Additional observations from a re-analysis of the deposited data

Results flagged for a closer look

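Of 113 gene and group pairs of 4 libraries examined, 7 held a library far from the other 3, where 5.65 would be flagged by chance at 1 in 20. None of the 7 was a member of the family. Oas1e was 0.285 FPKM in library 0 of EV with TGFβ and listed at 0 in the other 3. Oas1f was 0.362 FPKM in EV library 2 and listed at 0 in the other 3. Ifnb1 was 0.334 FPKM in library 2 of EV with TGFβ and listed at 0 in the other 3. Pde12 was 9.34 FPKM in EV library 2, the highest of its group. Ddx58 was highest in EV library 2 at 55.7 FPKM. Abce1 was highest in library 2 of both TGFβ groups, at 112 FPKM in EV and 109 FPKM in XPO4. Apart from that of Oas1e, every flagged library was numbered 2, and the reason was not tested. A nonzero value beside libraries listed at 0 is flagged at any size. The chance rate therefore does not apply to Oas1e, Oas1f and Ifnb1.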

How the results depend on the processing

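For the XPO4 effects, all 112 member values computed at baseline under the alternatives and all 119 with TGFβ kept their direction and stayed past the threshold, with limma adjusted p-values of at most 0.0108 (Oas3) and 0.000798 (Oasl2). Whether replicate numbers pair the libraries is not stated, and it was not settled here. Deviations from group means correlated between same-numbered EV and XPO4 libraries at 0.0230 to 0.0392 at baseline and -0.149 to 0.245 with TGFβ. At baseline each EV library with a same-numbered partner correlated best with it. With TGFβ this held for EV libraries 1 and 2, and not for 0 and 3. With the replicate number as a block, the share of all tested genes called at baseline went from 2.85% to 1.72% higher and from 0.864% to 0.159% lower. Xpo4 (limma adjusted p = 0.0891), Oas1c (0.0675), Adar (0.134) and Zc3hav1 (0.087) then missed the threshold at baseline, as did Adar with TGFβ (0.0721), while Oas3 had a log2 difference of 2.33 at baseline (0.0108). With the library code series as a block, 0.528% were called lower at baseline. With TGFβ, 0.852% called lower became 1.29% on the TPM scale and 1.92% with all groups in 1 fit. On the TPM scale 1 gene, or 0.00837%, was called higher in the interaction. Irf9 passed at baseline with all groups in 1 fit (0.0135), Eif2ak2 missed it with TGFβ with no filter or on the TPM scale (0.0601 for each), and Tmem173 missed it at baseline under 5 alternatives other than leaving out a library (0.0547 to 0.103).

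Leaving out 1 library gave 1.88% to 2.90% of genes higher and 0.386% to 0.880% lower at baseline, with the fewest higher without XPO4 library 0, and 0.451% to 0.769% lower with TGFβ. It gave 0% to 0.00837% in either direction in the interaction. For TGFβ in EV it gave 0.645% to 1.38% higher, 0.259% to 0.653% lower and 0 to 1 members lower. For TGFβ in XPO4 it gave 0.728% to 1.23% higher and 0.251% to 0.611% lower.

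Small log2 differences changed sign. The TGFβ effect in XPO4 on Oas2 was -0.023 with the replicate block and -0.0090 with the library code block, and that on Oas3 was 0.0038 on the TPM scale and 0.0087 after quantile normalization. Pde12 with TGFβ was -0.018 on the TPM scale. Leaving out 1 library gave Pde12 -0.12 to 0.025 and Akap7 -0.044 to 0.23 at baseline, and Pde12 -0.037 to 0.11 and Akap7 -0.11 to 0.082 with TGFβ. The interaction ran from -0.028 to 0.039 for Oas1a and from -0.011 to 0.39 for Oas3. The TGFβ effect in EV ran from -0.015 to 0.053 for Oas1a and from -0.40 to 5.8e-05 for Oas3. The TGFβ effect in XPO4 ran from -0.0061 to 0.050 for Oas1a, from -0.0046 to 0.082 for Oas2 and from -0.035 to 0.027 for Oas3. The cause of these changes was not tested. On the TPM scale the summed member level had ratios of 2.59 at baseline and 3.12 with TGFβ. Unknown depth limits what can be said of genes near 0, such as Oas1d, Oas1e, Oas1f and Oas1h.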
